A study of Mus musculus with 10 samples.

Results

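Slc1a3, Slc1a2, Fabp7, Glul, Gfap and Apoe, 6 genes that mark glia-like cells, were followed through bulk RNA-seq libraries of handpicked cells from the mouse cochlea. The genes were picked by symbol and not by their level, and all 6 were found among the 34590 genes counted. The series holds 10 libraries, 2 of each of 5 cell types. Supporting cells (SCs) were tdTomato-labelled Deiters' and pillar cells of mice carrying Fgfr3iCreER+ and the Cre-dependent reporter Rosa26-CAG-loxP-stop-loxP-tdTomato+, with library 11 labelled P26 and library 12 labelled P27. Converted hair cells (cHCs, libraries 13 and 16, P33) were former supporting cells of mice that carried the same Fgfr3iCreER and tdTomato alleles together with Atoh1-HA, an inducible transgene of the hair cell transcription factor Atoh1, and alpha9 AChR-EGFP, a reporter of hair cells. Both SC and cHC mice received tamoxifen at P12 and P13, so the SCs differed from the cHCs in the Atoh1-HA and EGFP alleles and in age. OHCs (P7) (libraries 14 and 15) and OHCs (P22) (libraries named here P21 and P22 after the ages in their labels) were outer hair cells, labelled in GEO as heterozygous for the prestin-YFP knock-in, although the study's methods give those at P7 a Prestin-CreERT2 driver with tdTomato, induced by tamoxifen on P2 and P3. IHCs (libraries P74 and P75, named likewise) were inner hair cells of Pval-Cre+ mice with the same tdTomato reporter, whose driver gene, parvalbumin, is also used by other hair cells and by spiral ganglion neurons. The library numbers form 2 series, one of SCs, cHCs and OHCs (P7) and one of OHCs (P22) and IHCs, so that series, age and genotype cannot be told apart from cell type in most comparisons.

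The 6 genes are used as markers of astrocytes and of other glia, in which they do different work. Slc1a3 encodes the glutamate transporter GLAST, which in the cochlea is found in the inner phalangeal and border cells that wrap the inner hair cells and clear the glutamate released at their synapses. Slc1a2 encodes GLT-1, the main glutamate transporter of forebrain astrocytes, and Glul encodes glutamine synthetase, which turns the glutamate taken up into glutamine. Fabp7 encodes a brain fatty acid binding protein of radial and satellite glia, Apoe the apolipoprotein that carries lipid out of glia, and Gfap the intermediate filament of mature or reactive astrocytes. Deiters' and pillar cells surround the outer hair cells, and inner phalangeal and border cells surround the inner hair cells, so each kind of hair cell is picked from among its own supporting cells.

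Levels are given as TMM-scaled CPM, that is, the reads on a gene scaled to the reads on all genes of its library, after a correction for library composition. Reads on genes numbered 15016129 to 40518766 per library, so 1 count was worth 0.0247 to 0.0666 CPM before scaling. The libraries carried the markers of their labels. The summed CPM of 4 inner hair cell markers (Slc17a8, Otof, Slc7a14, Tbx2) was 7425 to 8306 in IHCs and 3.29 to 5.11 in SCs. It was 1216 to 1299 in OHCs (P7), 400 to 531 in OHCs (P22) and 190 to 350 in cHCs. That of 4 outer hair cell markers was 12499 to 12784 in OHCs (P22) and 4788 to 4975 in OHCs (P7). It was 120 to 297 in IHCs, 69.7 to 306 in SCs and 155 to 217 in cHCs. That of 6 markers of all hair cells was 360 to 362 in SCs against 3680 to 5046 in the other cell types. Deiters' and pillar cell markers (8 genes) summed to 1214 to 1364 CPM in SCs, 939 to 1106 in cHCs, 94.7 to 388 in OHCs (P7), 10.1 to 11.0 in OHCs (P22) and 164 to 234 in IHCs. The count files of 4 records were exchanged. The record of SC library 11 held the counts of cHC library 13, that of cHC library 13 those of OHC (P7) library 15, that of cHC library 16 those of SC library 11, and that of OHC (P7) library 15 those of cHC library 16. Counts were therefore assigned to libraries through the study's own table of CPM by library number. For Slc1a3, Slc1a2, Glul and Apoe the group means that change with the attached files are given as well. The calls that change are given for all 6 genes. The study calls the 2 libraries of a cell type biological duplicates, and their labels differ in age for SCs, OHCs (P22) and IHCs, but the number of animals behind each is not given in the sources used here. The p values measure the spread between these libraries.

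Slc1a3 (ENSMUSG00000005360, mm9 chr15:8584124-8660764, minus strand) was highest in the IHC libraries, at 243 CPM in library P74 and 193 CPM in library P75 (218 ± 35.2, SD, n = 2). In SCs it stood at 129 and 76.6 CPM in libraries 11 and 12. The OHC libraries were low, with 3.98 and 2.62 CPM in libraries 14 and 15 at P7 and 2.91 and 0.168 CPM in libraries P21 and P22 at P22. Both IHC libraries therefore lay above all other 8 libraries, and the SC libraries lay above those of OHCs at either age. The 2 cHC libraries went apart, as library 13 had 77.9 CPM, a value inside the range of SCs, and library 16 had 0.330 CPM, from 13 counts. That gap of 236-fold is one that only 0.759% of the 13571 genes with a mean of at least 1 CPM in cHCs exceeded.

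In the comparison of IHCs with the mean of the other 4 cell types, Slc1a3 was 4.20 higher on the log2 scale (SE 1.06), and edgeR's quasi-likelihood test gave an FDR of 0.0725 after adjustment over 16891 genes, short of the threshold of 0.05. The same contrast passed with limma-voom, the method of the study (FDR 0.00811), and with DESeq2 (FDR 0.0112), but not in edgeR with RLE size factors (FDR 0.0853). The log2 difference was 5.91 without cHC library 13 and 3.95 without cHC library 16. With 1 cHC library the gap between the cHC libraries drops out of the spread, so these fits cannot decide the call. Against single cell types the log2 difference of IHCs was 7.19 (SE 2.05, FDR 0.129) to OHCs (P22), 6.04 (SE 1.93, FDR 0.274) to OHCs (P7), 2.48 (SE 1.64, FDR 0.553) to cHCs and 1.08 (SE 1.57, FDR 0.767) to SCs in edgeR. The IHC values exceeded those of SCs in all libraries, but by less than the test could separate. For OHCs (P22) against SCs its log2 fold change was -6.10 (SE 1.95, FDR 0.0828). For cHCs against SCs the log2 fold change was -1.40 (SE 1.58, FDR 0.741). It became -8.27 without library 13 and -0.40 without library 16, so 1 library decided its size. With the attached files the mean of Slc1a3 was 218 CPM in IHCs, 77.3 in SCs, 65.9 in cHCs, 2.16 in OHCs (P7) and 1.54 in OHCs (P22), and IHCs were 4.26 above the mean of the others on the log2 scale (SE 1.09, FDR 0.246).

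**Figure D1:**
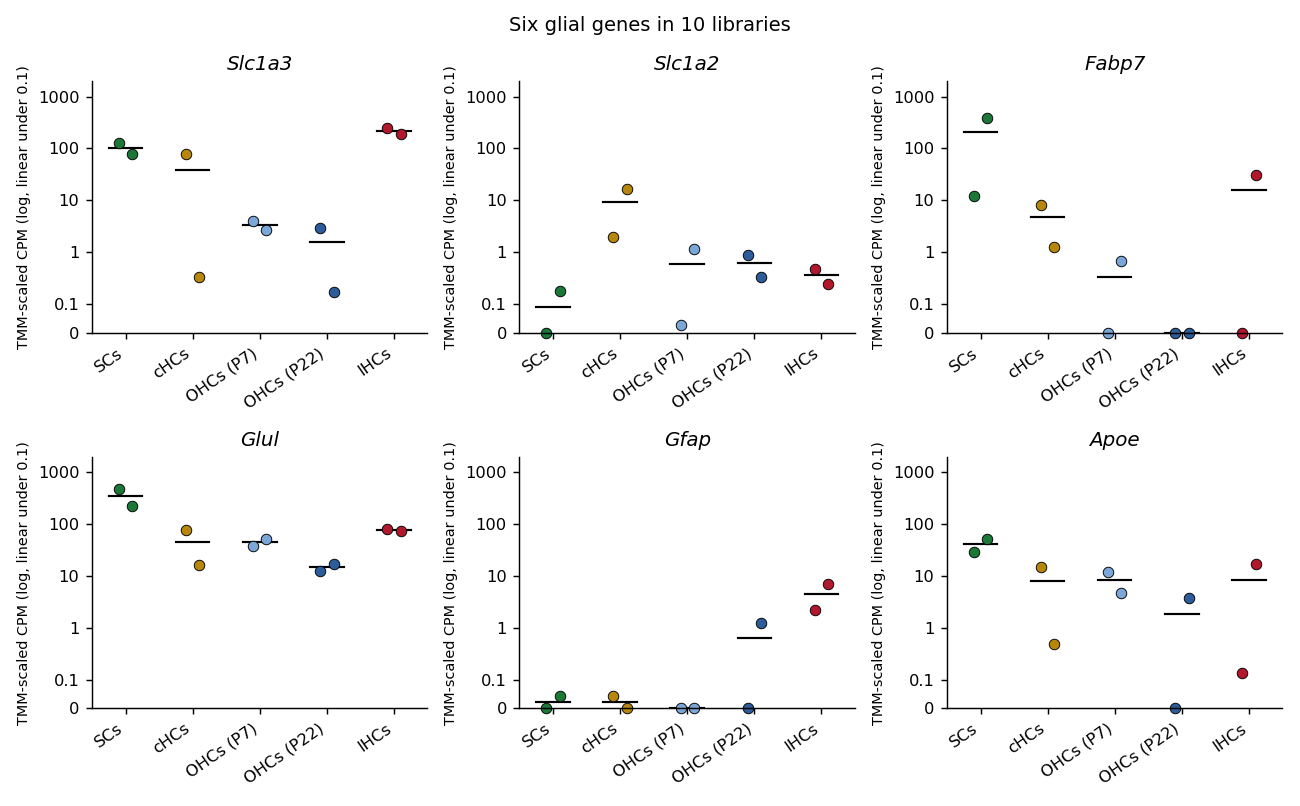
TMM-scaled CPM of Slc1a3, Slc1a2, Fabp7, Glul, Gfap and Apoe (log axis, linear under 0.1) in 5 cell types, with 1 point per library and a bar at the mean of the 2. Slc1a3 and Gfap are highest in both IHC libraries, Glul and Apoe in both SC libraries, and in several groups the 2 points lie more than 10-fold apart.

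Glul (ENSMUSG00000026473, chr1:155747074-155756853, plus strand) was the one gene of the 6 that passed the test. SC libraries 11 and 12 had 475 and 222 CPM, above all other 8 libraries. IHC libraries P74 and P75 had 81.6 and 72.6 CPM, cHC libraries 13 and 16 had 76.0 and 16.1 CPM, and OHC libraries 14 and 15 at P7 had 38.0 and 50.7 CPM. The lowest group was OHCs (P22), with 12.5 and 17.2 CPM in libraries P21 and P22, so that the order of means ran from SCs through IHCs, cHCs and OHCs (P7) to OHCs (P22). Neighbours in that order did not overlap between SCs and IHCs or between OHCs (P7) and OHCs (P22), whereas the range of cHCs held OHCs (P7) and reached into that of IHCs. With the attached files cHCs had the highest mean of Glul, at 263 CPM (50.7 and 475 CPM), above SCs at 149 CPM (76.0 and 222 CPM), and OHCs (P7) were at 27.04 CPM.

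From SCs to OHCs (P22) Glul fell by 4.55 on the log2 scale (SE 0.85, edgeR FDR 0.00790), a difference that remained past the threshold when any library was left out and was lost with the attached files (FDR 0.233). A joint test of any difference among the 5 cell types gave an FDR of 0.0192, which rose to 0.114 without SC library 11 and to 0.419 with the attached files. Against SCs the log2 fold change of Glul was -2.92 in cHCs (SE 0.78, FDR 0.108), -2.98 in OHCs (P7) (SE 0.79, FDR 0.0691) and -2.18 in IHCs (SE 0.76, FDR 0.187), each short of the threshold in edgeR. With limma-voom the difference passed for cHCs (FDR 0.0200), for OHCs (P7) (FDR 0.0287) and for IHCs (FDR 0.0490). IHCs exceeded OHCs (P22) in Glul by 2.37 (SE 0.77, FDR 0.177), while against the mean of the other 4 cell types they differed by 0.43 (SE 0.56, FDR 0.825).

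**Figure D2:**
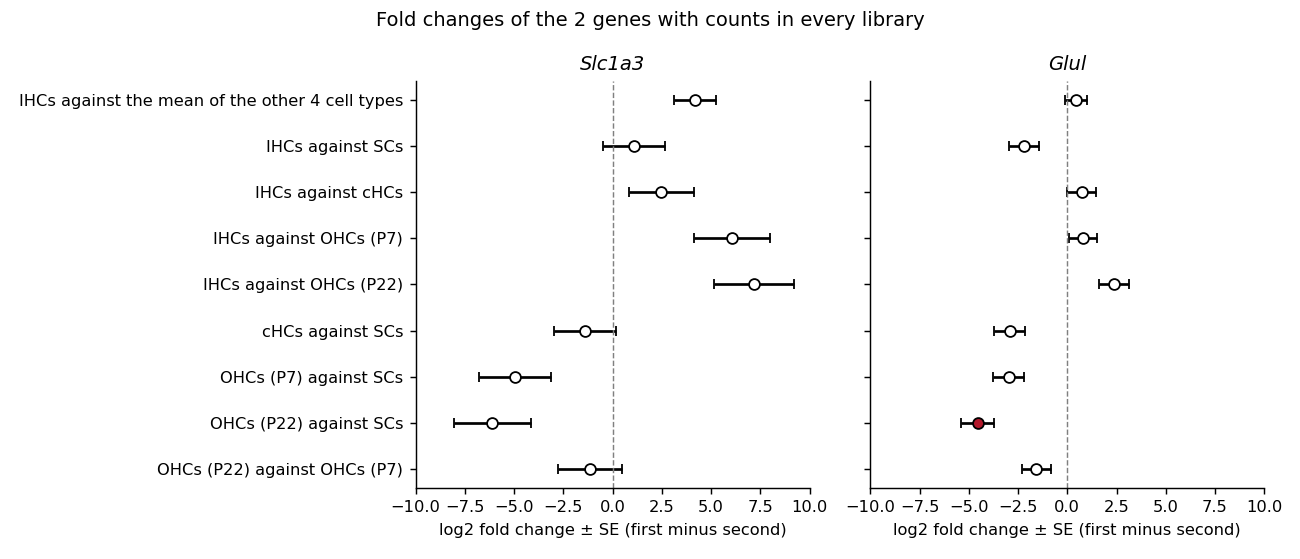
Log2 fold changes from edgeR, with bars of 1 SE, for Slc1a3 and Glul, the members with counts in all 10 libraries, in 9 comparisons; a filled point has an FDR under 0.05. The one filled point is Glul in OHCs (P22) against SCs, at -4.55, and the largest rise is Slc1a3 in IHCs against OHCs (P22), at 7.19.

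Both genes of the transport and conversion of glutamate were present in IHC and SC libraries, in unequal proportion. Per kilobase of exon, Slc1a3 and Glul had 28.5 and 24.5 CPM in IHC library P74 and 22.7 and 21.8 CPM in library P75. The ratio of Slc1a3 to Glul, both per kilobase, was thus 1.16 and 1.04 in IHCs, against 0.106 and 0.134 in SC libraries 11 and 12. It was 0.400 and 0.00800 in cHC libraries 13 and 16, 0.0409 and 0.0201 in OHCs (P7), and 0.0906 and 0.00381 in OHCs (P22). Both IHC libraries exceeded all others in this ratio, which does not depend on how libraries are scaled to each other. In bulk libraries, fewer cells of a type and less RNA per cell cannot be told apart.

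Slc1a2 (ENSMUSG00000005089, chr2:102498816-102630941, plus strand) did not follow Slc1a3. It had 0 counts in SC library 11 and 4 counts (0.178 CPM) in library 12, and IHC libraries P74 and P75 had 0.472 and 0.241 CPM. The OHC libraries ranged from 0.0273 CPM, a single count, to 1.14 CPM. The highest values were those of the cHCs, with 2.0 CPM in library 13 and 16.3 CPM in library 16, the library in which Slc1a3 was at 0.330 CPM. For cHCs against SCs edgeR gave an FDR of 0.328, and DESeq2 alone called the gene. Slc1a2 was thus at or under 0.472 CPM in all 4 SC and IHC libraries. With the attached files its mean was 1.09 CPM in SCs, with library 11 at 2.0 CPM, 0.571 CPM in cHCs and 8.17 CPM in OHCs (P7). The low level in SCs and the place of the cHCs thus depend on the assignment of the files.

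Fabp7 (ENSMUSG00000019874, chr10:57504687-57508256, plus strand) differed widely within cell types. SC library 12 had 394.98 CPM, more than 98.5% of the genes detected there, while library 11 had 11.8 CPM. In IHCs library P74 had 0 counts and library P75 had 913 counts (31.4 CPM), a gap that only 0.0705% of genes with a mean of at least 1 CPM in IHCs exceeded. The cHC libraries held 8.08 and 1.24 CPM, OHCs (P7) 0 and 0.671 CPM, and both OHC (P22) libraries 0 counts. Bounds were taken over the 2 libraries of a group together, by their reads on genes without TMM scaling, with 3 counts allowed for OHCs (P22). On that footing the level in SCs was at least 2015-fold higher than in OHCs (P22), and that in IHCs at least 231-fold higher. The bound for IHCs rests on library P75 alone, since library P74 had 0 counts as the OHC (P22) libraries did, and that for SCs rests mostly on library 12, with 8892 counts against 446 in library 11. Neither difference passed in edgeR, with FDRs of 0.0672 for OHCs (P22) against SCs and 0.244 for IHCs against OHCs (P22).

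Apoe (ENSMUSG00000002985, chr7:20281458-20284515, minus strand) was highest in SCs, with 28.7 and 52.5 CPM in libraries 11 and 12, above all other 8 libraries. OHC libraries 14 and 15 at P7 had 12.2 and 4.77 CPM, and at P22 library P21 had 0 counts and library P22 had 3.75 CPM. The duplicates of the other groups did not resemble each other, with 15.2 and 0.483 CPM in cHC libraries 13 and 16 and 0.135 and 17.0 CPM in IHC libraries P74 and P75. No comparison of Apoe passed in edgeR, and the smallest FDR against SCs was 0.284, in OHCs (P22). With the attached files the mean of Apoe was 33.9 CPM in SCs, 16.7 CPM in cHCs and 6.32 CPM in OHCs (P7), and one SC library, at 15.2 CPM, then lay below one of cHCs, at 28.7 CPM. The IHC library with little Apoe was also the one without Fabp7, and the cHC library with little Apoe was also the one with little Slc1a3.

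Gfap (ENSMUSG00000020932, chr11:102748650-102762226, minus strand) was highest in the IHCs and at few or no counts in most other libraries. It had 65 counts (2.19 CPM) in library P74 and 202 counts (6.94 CPM) in library P75, and both values exceeded those of all other libraries. OHC (P22) library P22 had 30 counts (1.26 CPM), SC library 12 and cHC library 13 had 1 count each, and the other 5 libraries had 0, which allows at most 3 counts or 0.200 CPM. Ratios were taken from the counts and the reads on genes of both libraries together, without TMM scaling. That of IHCs to SCs was 313, with a 95% counting interval of 55.7 to 12414. IHCs were at least 86.6-fold above OHCs (P7), with 3 counts allowed over the 2 OHC (P7) libraries together. The interval and the bound cover counting error only and not the spread between duplicates. Neither difference passed in edgeR, with FDRs of 0.290 for IHCs against SCs and 0.362 for IHCs against OHCs (P7). Against the mean of the other 4 cell types edgeR gave an FDR of 0.0910 and limma-voom 0.0260. Per kilobase of exon Gfap reached 0.519 and 1.65 CPM in IHCs, where Slc1a3 reached 28.5 and 22.7. The gene lies within the span of the non-coding gene Gm17536 on the opposite strand, but the 2 share no exon bases, and whether reads were counted by strand is not given in the sources used here.

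Over the comparisons, the count of the 6 genes that passed was small, as was the share of all genes. For IHCs against the mean of the other 4 cell types, edgeR called 0 of 6 (2 at an unadjusted p under 0.05, 2 with limma-voom and 1 with DESeq2), where 2.001% of all 16891 genes tested were called. Against SCs edgeR called 0 of 6 in IHCs (1 at an unadjusted p, 1 with limma-voom, 0 with DESeq2; 2.65% of all genes), and against cHCs 0 of 6 (0, 0 and 0 by the same 3 measures; 0.924% of all genes). The comparisons of IHCs with OHCs had 0 of 6 at P7 (2, 0 and 1; 0.379% of all genes) and 0 of 6 at P22 (3, 0 and 3; 1.46% of all genes). Against SCs the count was 0 of 6 for cHCs (2, 1 and 2; 1.84% of all genes), 0 of 6 for OHCs (P7) (3, 1 and 2; 3.41% of all genes) and 1 of 6, Glul, for OHCs (P22), where 8.02% of all genes were called. No member passed in edgeR between the 2 ages of OHCs (0, 0 and 1; 0.551% of all genes), and 1 of 6 passed the joint test, which called 7.81% of all genes. Both IHC libraries lay above the other 8 libraries for 2 of the 6 genes, as for 4.48% of all genes tested, and both SC libraries did so for 2 of 6, as for 7.97%.

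**Figure D3:**
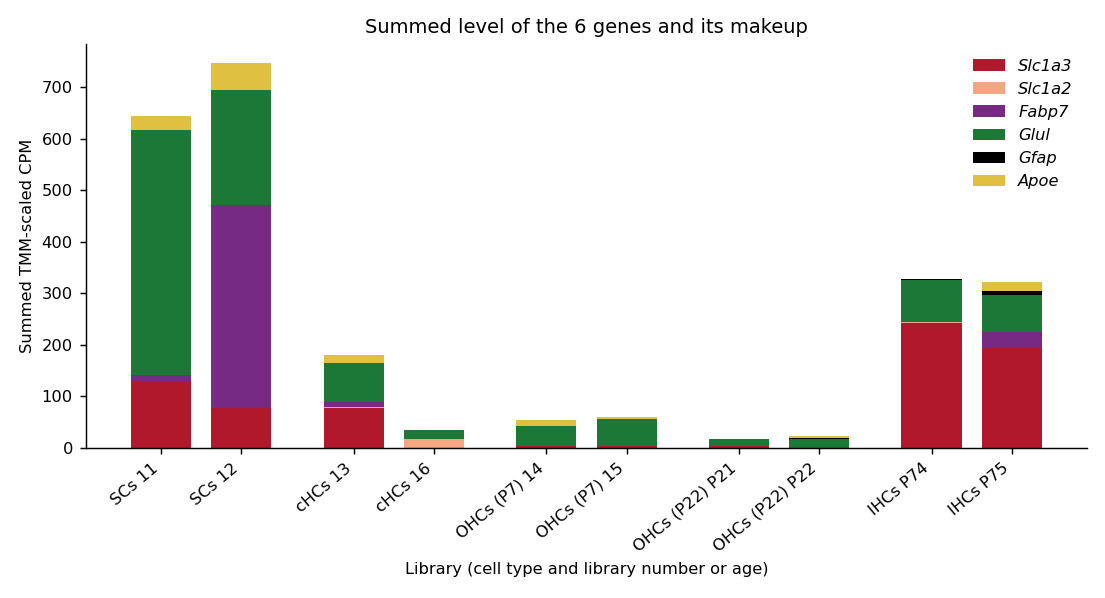
Summed TMM-scaled CPM of the 6 genes in each library, stacked by gene on a linear axis from 0. The SC libraries reach 645 and 747, the IHC libraries 328 and 322 and the OHC (P22) libraries 16.3 and 22.7, and Slc1a3 makes up most of the sum in IHCs only.

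The summed level of the 6 genes was 645 and 747 CPM in SC libraries 11 and 12, and 328 and 322 CPM in IHC libraries P74 and P75. It was 179 and 34.5 CPM in cHC libraries 13 and 16, 54.1 and 59.9 CPM in OHCs (P7), and 16.3 and 22.7 CPM in OHCs (P22). With the attached files the sum was 179 and 747 CPM in SCs, 59.9 and 645 CPM in cHCs and 54.1 and 34.5 CPM in OHCs (P7). The makeup differed as well. Slc1a3 took 74.2% and 60.2% of the sum in the IHC libraries, Glul took 73.7% in SC library 11, and Fabp7 took 52.9% in SC library 12. Glul was also the leading gene in all 4 OHC libraries, at 70.1% to 84.6%. In both SC libraries Slc1a3, Fabp7, Glul and Apoe were at or above 11.8 CPM, while Slc1a2 and Gfap were at or under 0.178 CPM. The 11.8 CPM is the lowest of these values and not a cut set beforehand. Nor was this level particular to SCs. IHC library P75 had 193, 31.4, 72.6 and 17.0 CPM of Slc1a3, Fabp7, Glul and Apoe. Library P74 had 0 counts of Fabp7 and 0.135 CPM of Apoe, and Slc1a3 was highest in IHCs.

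Beyond the 6 genes, 13 other genes of glutamate transport and the glutamine cycle were examined, of which 10 were tested. In IHCs against the mean of the other cell types 2 of 10 rose in edgeR, and the median log2 difference of the 10 was -0.36, beside 0.12 over all genes tested. Slc1a5, the ASCT2 exchanger of glutamine and other neutral amino acids, had 219 and 179 CPM in IHC libraries P74 and P75, and 2 counts and 1 count in the SC libraries (FDR 0.000431). All 4 other groups lay below IHCs, the next being cHCs at 62.3 and 27.4 CPM. Slc38a1, a sodium-coupled glutamine transporter, reached 818 and 1161 CPM in IHCs against 25.2 and 55.8 CPM in SCs (log2 difference from the mean of the others 2.43, SE 0.41, FDR 0.0117). It was also at 479 and 533 CPM in OHCs (P22), 199 and 291 CPM in OHCs (P7) and 111 and 337 CPM in cHCs. IHCs were 0.97 above OHCs (P22) on the log2 scale, short of the threshold in edgeR (SE 0.59, FDR 0.450).

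Slc1a4, the ASCT1 transporter of neutral amino acids and a paralogue of Slc1a3, was at 120 and 20.7 CPM in SCs and at 1.68 and 0.241 CPM in IHCs (log2 difference -6.18, SE 1.43, FDR 0.0473). It was also lower in OHCs (P22) than in SCs, at 0.617 and 0.337 CPM (log2 difference -7.22, SE 1.52, FDR 0.0149). In all, 3 of 10 genes passed in IHCs against SCs, Slc1a5 and Slc38a1 upward and Slc1a4 downward, and Slc1a4 was added to the named genes after its values were seen. The neuronal and photoreceptor transporters Slc1a1 and Slc1a7 stayed at or under 1.81 CPM in all 10 libraries. Slc1a6, of the same list, had 88 and 131 counts in IHC libraries P74 and P75, above all other libraries. It had 18 counts in OHC (P7) library 15, 25 in OHC (P22) library P22 and at most 1 elsewhere. In IHCs against the mean of the other cell types Slc1a6 did not pass in edgeR (FDR 0.180), and it too was named after its values were seen. The glial glutamine transporter Slc38a3 had 239 counts in cHC library 16 and at most 1 count elsewhere.

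**Figure D4:**
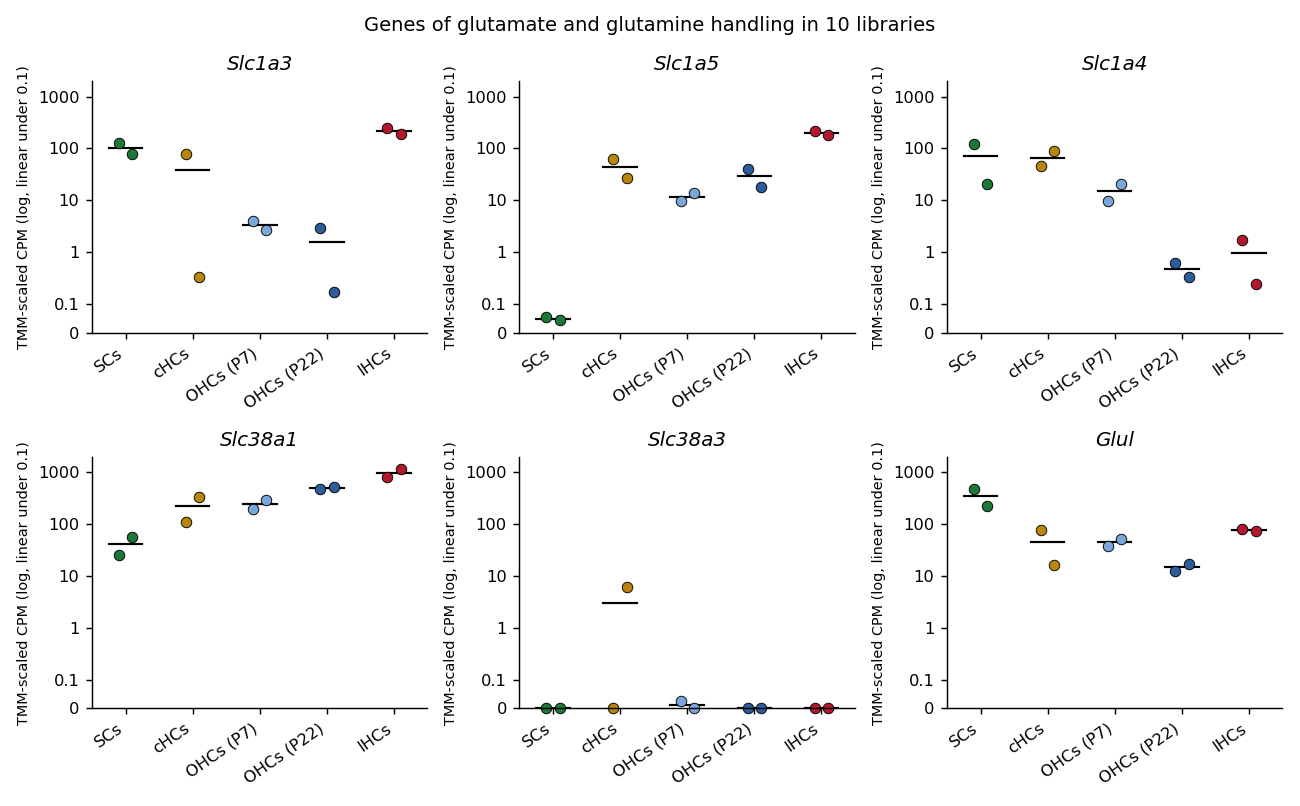
TMM-scaled CPM (log axis, linear under 0.1) of Slc1a3, Slc1a5, Slc1a4, Slc38a1, Slc38a3 and Glul, with 1 point per library and a bar at the mean. Slc1a5 has 2 counts and 1 count in SCs and 219 and 179 CPM in IHCs, while Glul is highest in SCs.

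Of 15 genes of lipoproteins and cholesterol export, 13 were tested and 0 passed in edgeR against the mean of the other cell types (0 at an unadjusted p under 0.05, 0 with limma-voom and 0 with DESeq2), with a median log2 difference of 0.53. Against OHCs (P22) 1 of 13 rose in IHCs, the cholesterol exporter gene Abca1, with 15.1 and 25.9 CPM in IHCs and 1 count and 0 counts in OHCs (P22) (FDR 0.0345). Against SCs 0 of 13 passed in edgeR (4 at an unadjusted p under 0.05, 3 with limma-voom and 4 with DESeq2). In OHCs (P22) against SCs 5 of 13 fell and 1 rose, where 8.02% of all genes were called, with a median log2 difference of -4.57 beside 0.00 over all genes. Among the falls were Clu, the apolipoprotein clusterin (4729 and 1158 CPM in SCs, 102 and 106 CPM in OHCs (P22), FDR 0.0288) and Vldlr, a receptor of Apoe-bearing particles (209 and 143 CPM against 0.529 and 0.126 CPM, FDR 0.00750). Abca1, Clu and Vldlr were chosen after their values were seen. Of 9 other fatty acid binding protein genes, 4 were tested and 0 passed in IHCs against the mean (1 at an unadjusted p under 0.05, 0 with limma-voom and 0 with DESeq2).

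Among 22 other genes of astrocytes, 16 were tested, and 1 of them rose in IHCs against the mean of the other cell types. It was Id3, an inhibitor of basic helix-loop-helix factors, with 84.6 and 106 CPM in IHCs and 0.529 and 0.505 CPM in OHCs (P22) (log2 difference from the mean 3.19, SE 0.57, FDR 0.0167). SCs held 42.5 and 173 CPM of Id3, so IHCs lay within the range of SCs. In OHCs (P22) against SCs 7 of 16 fell and 0 rose, where 8.02% of all genes were called in either direction. Aldh1l1 and Mlc1, which are widely used astrocyte genes, had 0 counts in SC, OHC and IHC libraries, and both SC libraries exceeded all others in 6 of the 16 genes, as in 7.97% of all genes.

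Of 3 further markers of inner phalangeal and border cells, 1 rose in IHCs against the mean of the other cell types. It was Gjb2, which encodes the connexin 26 of cochlear supporting cells, at 611 and 468 CPM in IHC libraries P74 and P75, above all other libraries, and at 393 and 124 CPM in SCs (log2 difference from the mean of the others 4.75, SE 0.82, FDR 0.0134). Gjb6, the gene of connexin 30, was at 89.9 and 95.5 CPM in IHCs and at 313 and 185 CPM in SCs (FDR 0.0962), and Gata3 did not differ from the mean beyond its error (log2 difference -0.0038, SE 0.43). The summed level of Gjb2, Gjb6 and Gata3 was 889 to 1128 CPM in IHCs, 1166 to 1540 in SCs, 106 to 418 in cHCs, 383 to 566 in OHCs (P7) and 210.4 to 340.4 in OHCs (P22), and none of the 3 was at 0 in both libraries of a group. Gata3 is also a gene of inner hair cells, and it made up most of the sum in OHCs. It was at 528 and 368 CPM in OHCs (P7) and at 331 and 210 CPM in OHCs (P22). In OHCs (P22) Gjb2 was at 0.794 and 0.379 CPM and Gjb6 at 8.55 and 0.421 CPM. The part of inner phalangeal and border cells in the Slc1a3 result was not tested.

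Schwann and satellite cell markers (5 genes) summed to 95.8 to 207 CPM in IHCs, 169.7 to 213 in SCs, 30.9 to 73.4 in cHCs, 8.996 to 10.9 in OHCs (P7) and 2.44 to 48.2 in OHCs (P22). Much of this was Sox10, a factor of glia and of cochlear supporting cells, at 69.3 and 99.7 CPM in IHCs and 148 and 190 CPM in SCs. Mbp, a gene of the myelin sheath, had 11.9 and 62.2 CPM in IHCs, beside 21.2 and 19.2 in SCs and 13.6 and 25.2 in cHCs. Pmp22 had 14.0 and 40.7 CPM in IHCs, above all other libraries, where it reached at most 6.11 CPM. Mag had 0 counts in IHCs. In IHCs against the mean 0 of the 4 tested markers passed in edgeR (1 at an unadjusted p under 0.05, 1 with limma-voom and 1 with DESeq2). Macrophage markers (7 genes), which bear on Apoe, summed to 2.36 CPM in IHC library P74 and 20.2 in library P75. Cx3cr1, C1qa, C1qb, Aif1 and Ptprc had 0 counts in both. Csf1r had 0 counts in library P74 and 264 counts (9.07 CPM) in library P75, and Cd68 had 2.36 and 11.1 CPM. In the other groups the macrophage sum was 6.53 to 18.4 CPM in SCs, 5.49 to 10.3 in cHCs, 14.9 to 31.1 in OHCs (P7) and 0.176 to 8.002 in OHCs (P22).

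Of 5 tested spiral ganglion neuron markers 3 rose in IHCs against the mean, where 2.001% of all genes were called. All were neurofilament genes. Nefl had 115 and 358 CPM in IHCs (FDR 0.00319), Nefm 163 and 94.7 CPM (FDR 0.0229) and Nefh 80.7 and 72.9 CPM (FDR 0.0255). Nefm was also at 66.2 and 105 CPM in cHCs, 111 and 86.3 in OHCs (P7) and 96.5 and 39.2 in OHCs (P22). SCs had 4 and 9 counts of it. Nefl was at 67.0 and 104 CPM in OHCs (P7). Tubb3 (1.25 and 0.344 CPM in IHCs) and Rbfox3 (0.472 and 9.66 CPM, beside 24.7 and 44.8 in cHCs) did not pass. Prph had 0 counts in all 10 libraries. The haemoglobin gene Hba-a1 was at 15.9 and 12.8 CPM in IHCs and at or under 0.590 CPM elsewhere (FDR 0.0454). It was 1 of 2 red blood cell markers tested. The other, Alas2, had 0 counts and 1 count in IHCs and 28.5 and 5.73 CPM in OHCs (P22) (FDR 0.374), and Hbb-b1, not tested, had 254 counts and 0 counts in the IHC libraries. Of the 2 stria vascularis markers tested and of the 6 fibroblast and tympanic border cell markers, 0 passed in edgeR (0 and 2 at an unadjusted p under 0.05, 0 and 0 with limma-voom, 0 and 1 with DESeq2). The part of these cells in the values of the 6 genes was not tested.

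**Figure D5:**
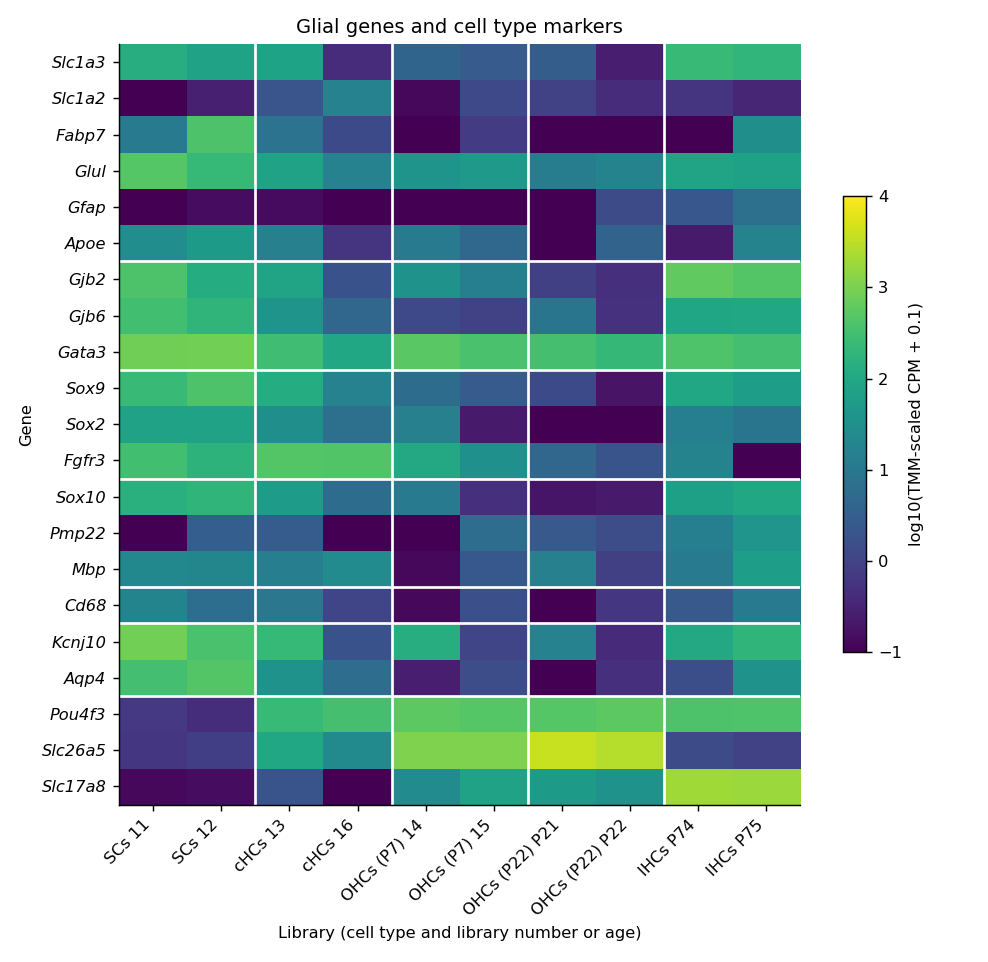
Heat map of log10(TMM-scaled CPM + 0.1) in 10 libraries, with the 6 genes at the top and, in blocks below, markers of inner phalangeal and border cells, Deiters' and pillar cells, Schwann cells, macrophages, astroglia and hair cells. Slc1a3, Gjb2 and Sox10 are high in SC and IHC libraries and low in OHC (P22) libraries, and cHC library 16 is darker than cHC library 13 for Slc1a3, Gjb2, Sox9 and Kcnj10.

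Some supporting cell genes, chosen after their values were seen, split the cHC libraries as Slc1a3 did, and others did not. Next to Slc1a3, at 77.9 and 0.330 CPM in libraries 13 and 16, Sox9 was at 126 and 16.0 CPM, Gjb2 at 83.4 and 1.73 CPM and Kcnj10, the potassium channel of glia and Deiters' cells, at 220 and 1.73 CPM. Fgfr3, whose promoter drives the Cre of these cells, did not follow, with 458 and 431 CPM, nor did the Deiters' and pillar cell markers Prox1, with 247 and 293 CPM, Lfng, with 42.3 and 73.5 CPM, and Jag1, with 80.9 and 60.4 CPM. The sum of the 8 Deiters' and pillar cell markers was 1106 and 939 CPM. Genes of all hair cells did not move as one either. Myo6 was at 2775 and 2861 CPM, Myo7a at 405 and 504 CPM and Pou4f3 at 235 and 330 CPM. Pvalb was at 599 and 1227 CPM, Espn at 22.1 and 88.3 CPM and Tmc1 at 46.2 and 1.91 CPM. The inner hair cell gene Slc17a8 had 44 and 0 counts. The duplicates of the other groups also differed at large, as the median gene with a mean of at least 1 CPM moved 2.37-fold between SC libraries, 1.998-fold between cHC libraries, 1.86-fold between OHC (P7) libraries, 2.87-fold between OHC (P22) libraries and 2.03-fold between IHC libraries. Against this, Slc1a3 moved 1.26-fold and Glul 1.12-fold between the IHC libraries.

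The genes whose log2 CPM ran most like a member's over the 10 libraries are given as a description, since libraries of a cell type share their source and no p value applies. For Slc1a3 these were Scd1, a stearoyl-CoA desaturase (r = 0.950), the basement membrane collagen gene Col4a5 (r = 0.950) and the protocadherin gene Fat1 (r = 0.940). Scd1 was at 3792 and 4210 CPM in SCs, 1917 and 2730 CPM in IHCs, and 1327 and 48.9 CPM in cHC libraries 13 and 16. Glul ran closest to S100a1, a calcium-binding protein gene (r = 0.972), the cystatin C gene Cst3 (r = 0.968) and the sialyltransferase gene St3gal6 (r = 0.964). Fabp7 was nearest to Fat2 (r = 0.946), Rbms3 (r = 0.940) and Fermt1 (r = 0.938), and Apoe to Gm7292 (r = 0.930), Dbt (r = 0.926) and Sft2d2 (r = 0.925). The nearest genes of Slc1a2 were Tmeff2 (r = 0.940), Smarcd2 (r = 0.926) and Gm10930 (r = 0.919). Those of Gfap were C030013C21Rik (r = 0.967), Zfpm2 (r = 0.967) and Gm15247 (r = 0.964). Zfpm2 and Gm15247 had fewer than 3 CPM in every library.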

How the data were processed

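Bulk RNA-seq of 10 libraries of handpicked mouse cochlear cells was analysed. cDNA was made with SPIA, an isothermal amplification, and read as 100-bp pairs. Bases were called with CASAVA 1.7 and trimmed with Cutadapt, reads were placed on mm9 with STAR and BWA, and the authors deposited raw HTSeq counts per gene symbol. Between 33.7% and 62.6% of the reads listed were on no gene and were left out. Files attached to 4 of the 10 records held another library's counts; each file was assigned by its constant ratio (CV at most 0.000138%) to the study's CPM columns, which the title in the file name matched in 10 of 10. The attached files were an alternative.

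Counts were tested with edgeR 4.0.16 (R 4.3.3): TMM, filterByExpr, 1 quasi-likelihood model of all libraries, 2-sided F-tests, Benjamini-Hochberg adjustment over 16891 genes, threshold 0.05. Standard errors (SE) are absolute log2 fold changes over the root of F. Fold changes of members are given only for those with counts in all libraries, and other values have counting intervals (95%, Poisson or binomial) or floors of 3 counts, which cover counting error only. Alternatives used limma 3.58.1 (voom), DESeq2 1.42.0, other scalings, filters and sample sets. The tests were also tried on simulated data. Tables were made with pandas 2.3.3 and figures with matplotlib 3.10.9.

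The members, gene lists and tests were chosen with earlier results of these data known. Named genes were the 6 members, list genes past the threshold in IHCs against the mean of the other cell types (at most 3 per list), the 3 genes nearest to each member by Pearson's r of log2 CPM (prior count 2), and marker genes that moved with a member. Coordinates and exon lengths are from GENCODE for mm9. Some genes of the lists are not reported here, and counts and sums are over the other genes.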

Additional observations from a re-analysis of the deposited data

How the results depend on the processing

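No paired analysis was possible because the cell types share no replicate numbers. The number of the 6 genes past the threshold was 0 in the main test in all comparisons except OHCs (P22) against SCs and the joint test, with 1 each. For IHCs against the mean of the other 4 cell types it became 1 without scaling beyond the total count, 2 with limma-voom, 1 with DESeq2 and 3 without a filter on low counts. For IHCs against SCs it became 1 with limma-voom and 1 without the filter. For IHCs against OHCs (P7) it became 1 with DESeq2, 2 without the filter and 1 when only the compared pair was fitted, and against OHCs (P22) 3 with DESeq2 and 3 without the filter. For cHCs against SCs it became 1 with limma-voom, 2 with DESeq2 and 2 without the filter. For OHCs (P7) against SCs it became 1 with limma-voom, 2 with DESeq2, 3 without the filter, 1 with a minimum of 10 counts per library and 2 when only the compared pair was fitted. For OHCs (P22) against SCs it became 3 with DESeq2, 3 without the filter, 3 when only the compared pair was fitted and 0 with the attached files, and against OHCs (P7) 1 with DESeq2. The joint test gave 2 with limma-voom, 2 with DESeq2, 3 without the filter and 0 with the attached files. The cause of these changes was not tested.

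Leaving out 1 library at a time, the count ranged from 0 to 1 for IHCs against the mean, against cHCs, against OHCs (P7) and against OHCs (P22), from 0 to 0 for IHCs against SCs and for the 2 ages of OHCs, from 0 to 2 for cHCs and for OHCs (P7) against SCs, from 1 to 3 for OHCs (P22) against SCs and from 1 to 3 for the joint test. For IHCs against the mean, Slc1a3 was the gene gained without cHC library 13, cHC library 16 or OHC (P22) library P21. Each such fit left that cell type with 1 library, so the gap between its duplicates no longer entered the spread. With the attached files Glul turned from lower to 0.82 higher in cHCs than in SCs and from higher in IHCs than in cHCs to lower (a log2 change of -1.77), and neither was past the threshold. No other fold change of Slc1a3 or Glul turned its direction in the alternatives run. There were 2 libraries per cell type, with a common dispersion of 1.12.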
